A study of Homo sapiens with 24 samples.

Results

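Condensin is the ring-shaped complex that folds chromatin into compact mitotic chromosomes, and its 8 human subunit genes were followed in RNA-seq of A549 cells. They are SMC2 and SMC4, which both forms of the complex share, NCAPD2, NCAPG and NCAPH of condensin I, and NCAPD3, NCAPG2 and NCAPH2 of condensin II. The members were chosen by gene symbol, with no measured value used, and each matched 1 of the 58721 Ensembl identifiers in the count files. All 8 were measured in each of the 24 libraries, with 507 to 9509 counts per library, and all 8 passed the filter on low counts in every comparison.

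SMC2 and SMC4 are ATPases with long coiled-coil arms that pair at a hinge. A kleisin subunit (NCAPH or NCAPH2) closes the ring and holds a pair of HEAT-repeat subunits (NCAPD2 and NCAPG, or NCAPD3 and NCAPG2). Condensin II is nuclear through interphase and starts to shorten chromosomes in prophase, whereas condensin I is mostly cytoplasmic and reaches chromosomes after the nuclear envelope breaks down. Transcripts of many mitotic genes peak in G2 and M under the DREAM, MYB-MuvB and FOXM1 complexes, which act largely through CHR elements in promoters.

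A549 is an established human lung adenocarcinoma line with epithelial character, and all groups came from the 1 line. Cells of the first experiment received 25 nM of siRNA against MYBL2 (siMYBL2, 4 libraries), of siRNA against FOXM1 (siFOXM1, 4) or of a scrambled siRNA (siControl, 4). In the second experiment both siRNAs were transfected together (siBoth, 3) beside a scrambled control of its own (siControl_Both, 3), also at 25 nM. The study's methods do not say whether that was the dose of each siRNA or their total. In the third, cells were treated for 24 h with 20 µM FDI-6 (FDI6, 3), a small molecule that blocks DNA binding of FOXM1, beside control_FDI6 libraries (3). The study names these controls DMSO in its supplementary list but untreated in a figure legend, so their vehicle is uncertain. The study calls its replicates biological. The sample labels do not say whether they came from separate cultures, and where they did not, the p-values measure the technical spread between libraries.

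Between 16487394 and 30140550 read pairs per library were counted on genes. The siRNA targets checked the labels: MYBL2 stood at 4.1% of its control mean in siMYBL2 and at 4.8% in siBoth, and FOXM1 at 9.5% in both siFOXM1 and siBoth. FOXM1 was also at 59.4% of siControl in the siMYBL2 libraries, and FDI-6 left MYBL2 at 68.9% and FOXM1 at 76.3% of control_FDI6. All 6 epithelial markers were expressed (KRT8 averaged 4100 CPM in siControl), whereas of the leukocyte markers PTPRC averaged at most 0.12 CPM and CD3E 0.00 CPM in any group. CD14, the only marker of that list over 1 CPM, averaged 5.72 CPM in siControl and 11.7 CPM in siMYBL2, and 5.38 CPM in siControl_Both and 11.2 CPM in siBoth (log2 fold changes 1.06 and 1.08, edgeR adjusted p 0.015 and 0.025). The 4 leukocyte markers summed to 4.31 to 7.57 CPM in siControl and 8.21 to 14.9 CPM in siMYBL2, and to 4.32 to 7.75 CPM in siControl_Both and 10.1 to 12.3 CPM in siBoth, and the part of that difference in the results below was not tested. Of the 5 fibroblast markers, COL1A1 averaged 20.7 CPM in siControl, 33.5 CPM in siControl_Both and 18.0 CPM in control_FDI6. EPCAM, an epithelial marker, was below it in each (18.0, 3.67 and 9.79 CPM). COL1A1 averaged 47.0 CPM in siBoth and 7.23 CPM in FDI6, and the part of these differences was not tested. No other fibroblast marker averaged over 2.80 CPM, and the 3 endothelial markers summed to at most 4.56 CPM. The epithelial markers summed to 9807 to 10562 CPM in control_FDI6 and to 5968 to 6853 CPM in FDI6, and the part of that shift in the FDI-6 results below was not tested. Levels are given as CPM, counts scaled to the size of each library, with edgeR's TMM factors over all 24 libraries.

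The promoters of the members are shown first because 5 of these genes fell together after MYBL2 knockdown. RefSeq promoters (GRCh38.p14), reaching from 250 bases before to 50 bases after the transcription start site, were found for 7 of the 8 members, and each window sits on the start of the canonical transcript. In lower case below, the capitals mark matches on either strand to CHR (TTTGAA or TTCGAA), the CCAAT box (CCAAT), the core of the MYB site (AACGG), the core of the forkhead site (TAAACA) and E2F sites (GCGGGAA or GCGCGAA). The first 5 belong to the members that fell in siMYBL2 and in siBoth, and the last, NCAPD2, to a member that passed in neither without a replicate block and the GC and length correction described below.
SMC2 (chr9:104094059-104094358, plus strand): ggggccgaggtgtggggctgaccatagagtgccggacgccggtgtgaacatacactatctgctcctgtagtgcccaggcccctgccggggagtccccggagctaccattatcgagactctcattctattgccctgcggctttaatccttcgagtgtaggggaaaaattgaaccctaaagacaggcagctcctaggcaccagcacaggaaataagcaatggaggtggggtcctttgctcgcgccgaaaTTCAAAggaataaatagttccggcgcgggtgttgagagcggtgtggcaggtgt
SMC4 (chr3:160399400-160399699, plus strand): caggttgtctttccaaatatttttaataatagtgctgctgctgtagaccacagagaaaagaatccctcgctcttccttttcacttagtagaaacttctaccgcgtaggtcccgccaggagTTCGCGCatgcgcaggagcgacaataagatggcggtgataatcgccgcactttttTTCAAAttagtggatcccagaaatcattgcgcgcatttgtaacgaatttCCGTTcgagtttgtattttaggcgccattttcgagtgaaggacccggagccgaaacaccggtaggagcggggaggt
NCAPG (chr4:17810729-17811028, plus strand): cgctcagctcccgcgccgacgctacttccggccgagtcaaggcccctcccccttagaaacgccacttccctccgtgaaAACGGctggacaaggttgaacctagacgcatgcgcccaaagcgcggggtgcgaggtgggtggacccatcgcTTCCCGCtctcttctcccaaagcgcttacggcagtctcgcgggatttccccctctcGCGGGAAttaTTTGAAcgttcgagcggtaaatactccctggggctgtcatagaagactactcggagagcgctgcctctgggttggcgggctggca
NCAPH (chr2:96335516-96335815, plus strand): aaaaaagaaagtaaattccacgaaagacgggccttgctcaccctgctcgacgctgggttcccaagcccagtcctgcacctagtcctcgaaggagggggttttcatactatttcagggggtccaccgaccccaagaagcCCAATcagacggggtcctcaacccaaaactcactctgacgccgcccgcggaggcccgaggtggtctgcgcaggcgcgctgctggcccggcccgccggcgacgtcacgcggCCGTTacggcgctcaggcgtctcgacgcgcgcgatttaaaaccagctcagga
NCAPG2 (chr7:158704755-158705054, minus strand): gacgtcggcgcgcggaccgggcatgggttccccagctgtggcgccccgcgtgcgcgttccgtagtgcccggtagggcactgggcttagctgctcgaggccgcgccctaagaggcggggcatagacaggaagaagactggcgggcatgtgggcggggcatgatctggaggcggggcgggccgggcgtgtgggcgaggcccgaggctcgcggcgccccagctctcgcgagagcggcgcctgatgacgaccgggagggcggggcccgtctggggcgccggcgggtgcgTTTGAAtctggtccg
NCAPD2 (chr12:6493852-6494151, plus strand): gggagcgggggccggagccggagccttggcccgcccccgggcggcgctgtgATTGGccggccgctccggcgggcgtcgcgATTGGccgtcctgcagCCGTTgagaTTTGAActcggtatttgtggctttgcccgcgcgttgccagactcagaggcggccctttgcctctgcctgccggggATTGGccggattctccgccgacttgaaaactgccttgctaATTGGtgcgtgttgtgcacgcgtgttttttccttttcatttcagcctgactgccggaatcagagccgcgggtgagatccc

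A CHR match lay in 6 of the 7 promoters, and 16.4% of all 35116 promoters of this length hold one. With the start site as position 0, the match began at -35 in NCAPG, at -75 (reverse strand) in SMC4, at -3 (reverse strand) in SMC2, at 35 in NCAPG2, at -145 in NCAPD2 and at -3 in NCAPD3. NCAPH, which fell, was the promoter without these letters, and NCAPD2 and NCAPD3, which did not pass the unblocked test in siMYBL2, held them. A MYB core match lay in 5 of the 7 (19.7% of all promoters), a CCAAT match in 3 (34.6%) and an E2F match in 3 (8.54%). No forkhead core match was found in these 7 windows, and 12.3% of all promoters hold one. NCAPD2 carried 4 CCAAT matches, all on the reverse strand. In NCAPG, the E2F match that begins at -45 and the CHR match are separated by only a few bases. A match describes letters in the window and is not a measured binding site.

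Per length, the members differed several-fold in level under the scrambled control. Expressed as CPM per kilobase of canonical transcript in siControl (mean ± SD, n = 4), NCAPD2, a HEAT-repeat subunit of condensin I, was highest at 65.8 ± 4.59, and SMC4 followed at 55.3 ± 5.13. NCAPG2, a HEAT-repeat subunit of condensin II, was at 33.0 ± 1.91 and SMC2 at 30.0 ± 1.47. The remaining levels per kilobase were 15.2 ± 1.31 for NCAPG, 11.5 ± 0.90 for NCAPD3, 9.63 ± 1.30 for NCAPH2 and 9.14 ± 0.68 for NCAPH. The kleisins of both complexes were at the lower end of this order. In this order, NCAPG2 and SMC2, NCAPD3 and NCAPH2, and NCAPH2 and NCAPH differed by less than the sum of their SDs. The SMC4 to SMC2 ratio per kilobase was 1.84 ± 0.137 in siControl, 2.21 ± 0.035 in siControl_Both (n = 3) and 1.52 ± 0.074 in control_FDI6 (n = 3).

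Part of these levels depends on overlapping genes. Exons on the opposite strand cover 33.7% of the exon bases of NCAPG (LCORL), 22.0% of SMC4 (IFT80 and TRIM59), 19.2% of NCAPH2 (SCO2, listed at 0 CPM in every group), 11.95% of NCAPD3 and 5.92% of NCAPD2. No strand setting is named for the counting, so pairs in those stretches cannot be assigned with certainty, and those 5 levels are uncertain to that degree. Another annotated gene covers 19.17% of the exon bases of NCAPH2 on its own strand, where a strand setting would not separate them. SMC2, NCAPH and NCAPG2 have no such overlap in the annotation.

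**Figure D1:**
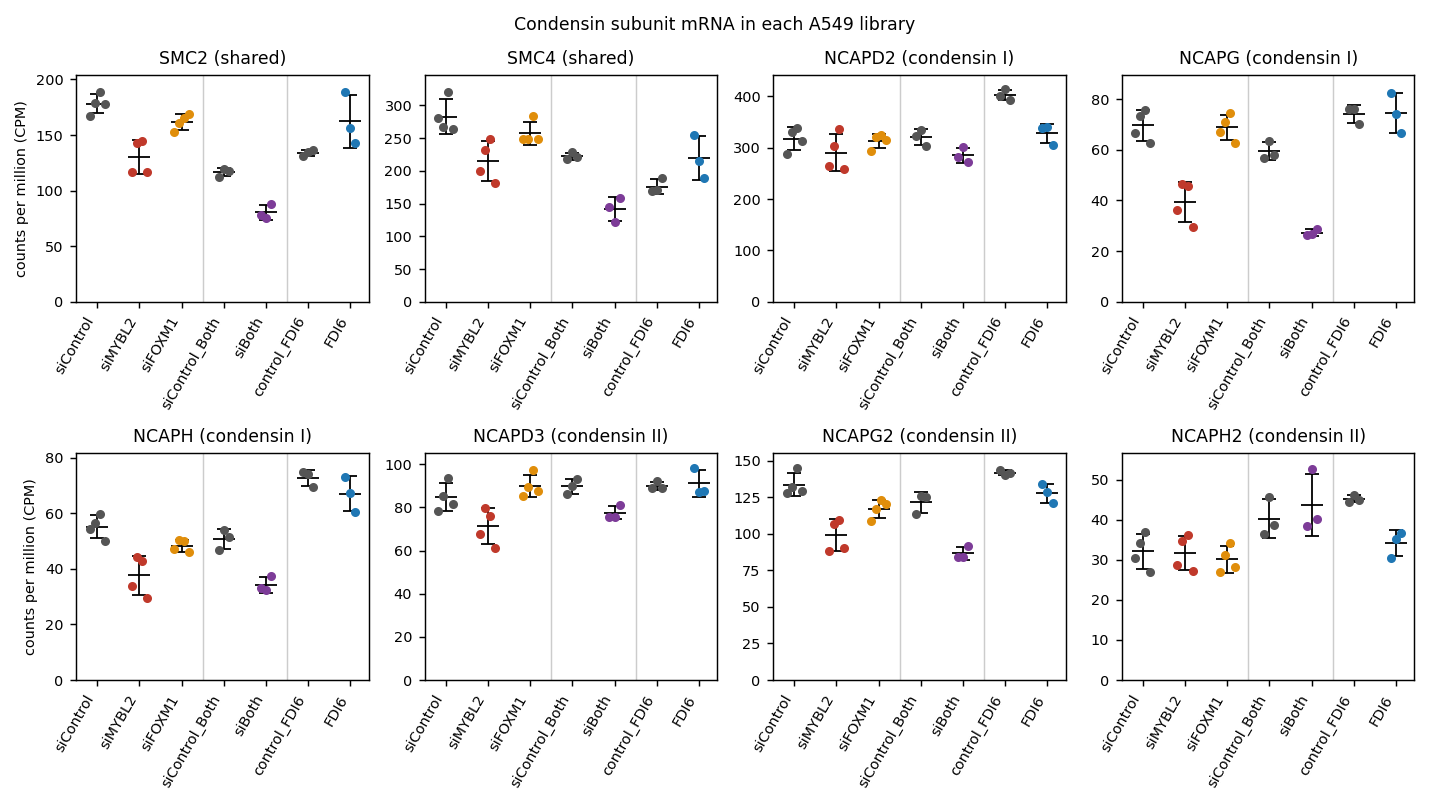
Level of each condensin subunit in CPM (y axis, starting at 0) in each of the 24 libraries (points) by group (x axis), with the mean and SD of the group in black and grey lines between the 3 experiments. NCAPG in siMYBL2 (29.7 to 46.4 CPM) and in siBoth (26.4 to 28.9 CPM) lay below every library of its own control, whereas NCAPH2 overlapped its control in both.

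MYBL2 knockdown lowered subunits of both complexes and both shared ATPases. By edgeR's quasi-likelihood test, 5 of the 8 members fell at an adjusted p under 0.05 (SMC2, SMC4, NCAPG, NCAPH and NCAPG2) and none rose, where 9.53% of 16065 genes tested fell and 8.53% rose. The median log2 fold change of the 8 was -0.39, against 0.015 over all genes. With a fold change over 1.5 also required, as the study does, NCAPG alone was called (7.9% of genes were called in either direction).

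NCAPG, the HEAT-repeat subunit that anchors condensin I on DNA together with the kleisin, moved most. It was at 36.2, 46.4, 45.6 and 29.7 CPM in siMYBL2 replicates 1 to 4 and at 66.8, 73.4, 75.7 and 62.7 CPM in siControl. The groups did not overlap, and siMYBL2 replicate 4 was the lowest library. NCAPG fell by 0.80 on the log2 scale (SE 0.13, adjusted p 0.0044), to 56.7% of the control mean, and was lower in 4 of 4 same-numbered pairs. LCORL, which overlaps it on the other strand, was at 19.9 CPM in siMYBL2 and at 20.2 CPM in siControl.

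NCAPH, the kleisin of condensin I, was at 33.8, 44.3, 42.7 and 29.5 CPM in siMYBL2 and at 54.4, 56.6, 59.6 and 49.9 CPM in siControl. The groups were again apart, with replicate 4 lowest in both. It fell by 0.53 (SE 0.12, adjusted p 0.018). That call was lost without siMYBL2 replicate 1 (adjusted p 0.062) or siControl replicate 2 (adjusted p 0.0502), with log2 fold changes of -0.49 and -0.53. In a fit with the replicate number as a block, NCAPH was at -0.54 (adjusted p 1.2e-05), where 23.1% of all genes fell. NCAPD2, the other HEAT-repeat subunit of condensin I, ran from 258.4 to 336.1 CPM in siMYBL2 and from 288.3 to 338.6 CPM in siControl, and these ranges overlapped. Its log2 fold change was -0.11 (95% confidence interval -0.32 to 0.11, adjusted p 0.48), or -0.11 with the replicate block (adjusted p 0.053). When the GC and length correction described with FDI-6 was added to that fit, it was -0.12 and passed (adjusted p 0.030).

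SMC2 was at 116.3, 143.2, 144.2 and 117.1 CPM in siMYBL2 and at 167.1, 178.8, 188.5 and 178.0 CPM in siControl. SMC4 was at 199.9, 232.3, 248.1 and 180.8 CPM against 280.7, 266.4, 320.7 and 263.9 CPM. Neither ATPase overlapped its control, and siMYBL2 replicates 1 and 4 were the lower libraries for both. SMC2 fell by 0.43 (SE 0.09, adjusted p 0.0094) and SMC4 by 0.37 (SE 0.11, adjusted p 0.039). The SMC4 call was lost without siMYBL2 replicate 1, 2 or 4 or siControl replicate 1, 2 or 3 (adjusted p 0.052 to 0.111). With the GC and length correction its adjusted p was 0.062, and with upper-quartile scaling 0.060. With the replicate block SMC4 was at -0.38 (adjusted p 2.8e-05), and at -0.36 once the correction was added (adjusted p 6.8e-05). IFT80, on the opposite strand of SMC4, also fell (log2 fold change -0.72, adjusted p 0.0013).

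Of the condensin II subunits, NCAPG2 fell. It was at 88.5, 106.8, 109.8 and 90.4 CPM in siMYBL2 and at 128.1, 132.0, 144.9 and 129.5 CPM in siControl, again with no overlap, and it fell by 0.41 (SE 0.08, adjusted p 0.010). NCAPD3 was at 61.2 to 79.6 CPM against 78.3 to 93.6 CPM, which overlap, and its log2 fold change of -0.23 did not pass (95% confidence interval -0.43 to -0.03, adjusted p 0.11). In a fit with the replicate number as a block NCAPD3 did fall (log2 fold change -0.23, adjusted p 0.0018), which made 6 of 8 members, where 23.1% of all genes fell in that fit. NCAPH2, the kleisin of condensin II, was level at 27.3 to 36.1 CPM against 27.0 to 36.9 CPM (log2 fold change 0.00, 95% confidence interval -0.27 to 0.28). In all, 5 members had no overlap between the groups, all lower, and so had 13.0% of all genes tested.

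**Figure D2:**
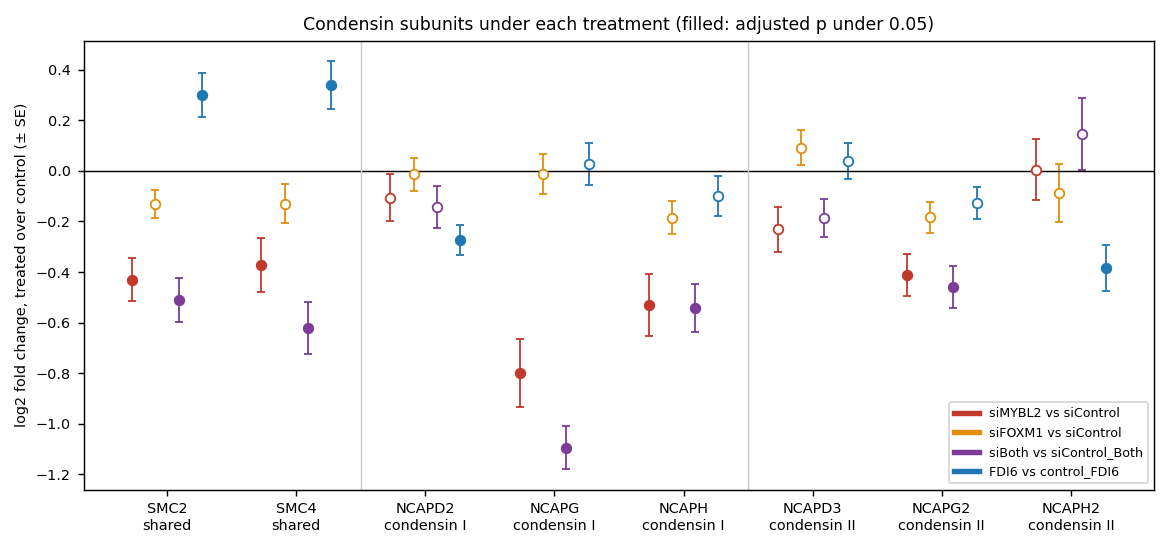
Log2 fold change of treated over control libraries (y axis, points ± SE) for each subunit (x axis) under the 4 treatments, with filled points where the adjusted p of the unblocked edgeR fit was under 0.05. NCAPG reached -0.80 in siMYBL2 and -1.09 in siBoth, no siFOXM1 point was filled, and SMC2 and SMC4 were above 0 with FDI-6 only (0.30 and 0.34).

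FOXM1 knockdown left the members close to siControl, the same 4 libraries that served for siMYBL2. None of the 8 passed the edgeR test, where 1.09% of 15892 genes fell, 0.277% rose and 0.667% also passed the fold change of 1.5. At an unadjusted p under 0.05 there were 3 (SMC2, NCAPH and NCAPG2), and DESeq2 gave 0 at an adjusted p under 0.05. NCAPG was at 67.1, 70.8, 74.6 and 62.7 CPM in siFOXM1, with log2 differences of -0.05 to 0.01 from the same-numbered siControl libraries. Its log2 fold change was -0.01 (95% confidence interval -0.19 to 0.17).

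The siFOXM1 and siControl libraries of 1 number varied together, and once the number entered the fit as a replicate block 4 members fell, against 14.0% of all genes. These were NCAPG2 (log2 fold change -0.18, SE 0.03, adjusted p 0.00012), NCAPH (-0.18, SE 0.04, adjusted p 0.0012), SMC4 (-0.13, SE 0.03, adjusted p 0.0018) and SMC2 (-0.13, SE 0.03, adjusted p 0.0025). NCAPG2 was at 108.5, 116.7, 123.2 and 120.2 CPM in siFOXM1, below all siControl libraries, and was the 1 member whose groups did not overlap, as were 5.19% of all genes in the lower direction. Each of these 4 genes was lower in 4 of 4 pairs, with log2 differences from -0.25 to -0.07. With the GC and length correction added to the block, SMC2 and SMC4 no longer passed (adjusted p 0.057 and 0.078) and NCAPD3 passed in the other direction (0.09, adjusted p 0.044).

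Set directly against each other, MYBL2 knockdown left 5 members lower than FOXM1 knockdown did, where 13.2% of 16538 genes were lower. With the replicate block there were 7, against 25.7% of genes. NCAPG differed most, with a log2 difference of -0.80 (SE 0.12, adjusted p 0.00057). NCAPH differed by -0.36 (SE 0.11, adjusted p 0.031) and NCAPD3 by -0.33 (SE 0.08, adjusted p 0.010). SMC2 differed by -0.31 (SE 0.07, adjusted p 0.0095) and NCAPG2 by -0.24 (SE 0.07, adjusted p 0.035). Subunits of condensin I and of condensin II thus both stood lower in siMYBL2. SMC4 did not pass (-0.25, 95% confidence interval -0.46 to -0.04, adjusted p 0.077), and with the replicate block it did (-0.26, adjusted p 8.8e-05), as did NCAPD2 (-0.11, adjusted p 0.035). NCAPH2 did not differ beyond its error (0.08, 95% confidence interval -0.17 to 0.34).

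In edgeR fits without the block, NCAPH and NCAPG2 were not stable to the loss of 1 library. NCAPH lost its call without siMYBL2 replicate 1 or 4 or siFOXM1 replicate 1, 2 or 3 (adjusted p 0.063 to 0.094). NCAPG2 lost it without siMYBL2 replicate 1 or 4 or siFOXM1 replicate 2, 3 or 4 (adjusted p 0.068 to 0.108). With the replicate block and all libraries, NCAPH differed by -0.37 (adjusted p 4.7e-05) and NCAPG2 by -0.24 (adjusted p 8.4e-05). The blocked fit was not run with 1 library left out.

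Knockdown of both factors lowered shared ATPases and subunits of both complexes. In siBoth, 5 of 8 fell (SMC2, SMC4, NCAPG, NCAPH and NCAPG2) and none rose, where 7.77% of 15812 genes fell and 4.55% rose. The median log2 fold change of the 8 was -0.48, against 0.017 over all genes. NCAPG and SMC4 also passed the fold change of 1.5, as did 6.44% of all genes in either direction. Leaving out siBoth replicate 3 raised that count to 4 and leaving out siBoth replicate 2 lowered it to 1.

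NCAPG was at 26.4, 26.7 and 28.9 CPM in siBoth and at 56.9, 63.4 and 58.1 CPM in siControl_Both. It fell by 1.09 on the log2 scale (SE 0.09, adjusted p 0.00038), to 46.0% of its control, the lowest share of any member in any comparison. SMC4 was at 144.5, 122.3 and 158.4 CPM against 217.8, 228.6 and 220.4 CPM and fell by 0.62 (SE 0.10, adjusted p 0.0086). Both genes were apart from their controls, and siBoth replicate 2 was the lowest for SMC4. With the GC and length correction SMC4 fell by 0.42 (adjusted p 0.011) and NCAPG by 0.92 (adjusted p 0.00080), which takes SMC4 under the fold change of 1.5. Of the genes opposite SMC4, IFT80 (-0.70, adjusted p 0.021) and TRIM59 (-0.69, adjusted p 0.026) fell as well, whereas LCORL, opposite NCAPG, had a log2 fold change of -0.24 (adjusted p 0.27).

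SMC2 was at 77.8, 75.1 and 88.1 CPM against 112.6, 119.6 and 117.6 CPM and fell by 0.51 (SE 0.09, adjusted p 0.0090). With the GC and length correction it fell by 0.29 (adjusted p 0.048), over 1.5 times less. NCAPH was at 33.0, 32.2 and 37.5 CPM against 46.8, 54.0 and 51.5 CPM and fell by 0.54 (SE 0.10, adjusted p 0.011). Its call was lost without siControl_Both replicate 2 (-0.50, adjusted p 0.052). NCAPG2 was at 84.0, 84.3 and 92.0 CPM against 113.5, 126.1 and 125.0 CPM and fell by 0.46 (SE 0.08, adjusted p 0.012). Without siControl_Both replicate 2 or 3 its adjusted p was 0.052 or 0.053 (both log2 fold changes -0.44). In each of these 3 genes the groups stood apart. With the replicate block the adjusted p was 8.5e-05 for NCAPH and 8.5e-05 for NCAPG2.

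The other members moved little in siBoth. NCAPD3 was at 75.7, 75.7 and 80.9 CPM against 86.1, 90.1 and 93.2 CPM. Its groups did not overlap, yet its log2 fold change of -0.19 passed only with the replicate block (adjusted p 0.14, and 0.044 with the block, where 18.5% of genes fell). Once the GC and length correction was added to the block NCAPD3 did not pass (-0.09, adjusted p 0.21). NCAPD2 had a log2 fold change of -0.14 (95% confidence interval -0.33 to 0.05), and with that correction and the block it was -0.15 and passed (adjusted p 0.0445). NCAPH2, at 38.5, 52.7 and 40.1 CPM against 36.4, 45.7 and 38.6 CPM, had one of 0.15 (95% confidence interval -0.18 to 0.47). In all, 7 members had no overlap between the groups, all lower, as had 20.6% of all genes. The share of read pairs that could not be aligned was 9.09% to 10.9% in siBoth and 7.68% to 7.92% in siControl_Both, and its part in these values was not tested.

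The effect of the double knockdown was compared with that of MYBL2 knockdown alone, each against its own scrambled control. No member differed by edgeR (adjusted p 0.75 to 0.99), none had an unadjusted p under 0.05, and DESeq2 gave 0 as well, where 0.176% of 17012 genes differed in either direction. The largest differences were -0.30 for NCAPG (95% confidence interval -0.68 to 0.09) and -0.25 for SMC4 (-0.59 to 0.09), so a further fall of that order could not be told from none. With the replicate block the intervals were -0.50 to -0.07 and -0.46 to -0.04, with adjusted p of 0.11 and 0.14. With the GC and length correction the difference was smaller, at -0.145 for NCAPG (95% confidence interval -0.55 to 0.26) and -0.07 for SMC4 (-0.39 to 0.26). With that correction and the block the intervals were -0.32 to 0.06 and -0.24 to 0.11. Without block or correction, the intervals of NCAPG2 (-0.30 to 0.21) and SMC2 (-0.35 to 0.19) were the narrowest among the members that fell.

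With FDI-6, SMC2 and SMC4 rose and NCAPD2 and NCAPH2 fell by edgeR, and the other 4 members did not pass, where 21.0% of 15240 genes rose and 17.9% fell. No member reached a fold change of 1.5 at an adjusted p under 0.05 (4 had an unadjusted p under 0.05, and DESeq2 also called 0), although 13.8% of all genes did. SMC2 was at 188.9, 156.2 and 142.4 CPM in FDI6 and at 130.9, 134.7 and 136.1 CPM in control_FDI6. SMC4 was at 255.2, 214.4 and 188.7 CPM against 168.6, 170.5 and 188.7 CPM. FDI6 replicate 1 was the highest library for both, and the lowest FDI6 value for SMC4 lay above the highest control by less than the printed precision.

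SMC2 rose by 0.30 (SE 0.09, adjusted p 0.019) and SMC4 by 0.34 (SE 0.09, adjusted p 0.014). The SMC2 call was lost without control_FDI6 replicate 1, 2 or 3 (adjusted p 0.056 to 0.085) and the SMC4 call without control_FDI6 replicate 1 or 2 (adjusted p 0.076 and 0.071). Without FDI6 replicate 1 the SMC2 value was 0.19, over 1.5 times smaller, and that of SMC4 0.23. FDI6 replicate 1 also had the highest share of unaligned pairs in its experiment (3.03%, against 1.73% to 2.11% in the other 5 libraries), whose part in these values was not tested.

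NCAPD2 was at 338.3, 339.3 and 305.8 CPM in FDI6 and at 399.9, 413.3 and 393.0 CPM in control_FDI6. It fell by 0.27 (SE 0.06, adjusted p 0.0039), with no overlap, and MRPL51 on its opposite strand fell too (-0.53, adjusted p 0.0025). NCAPH2 was at 30.5, 35.1 and 36.7 CPM against 44.5, 46.2 and 45.0 CPM and fell by 0.38 (SE 0.09, adjusted p 0.0059). Neither gene had passed the unblocked test in siMYBL2 or siBoth. NCAPG, which had moved most in both, was at 82.6, 74.2 and 66.8 CPM against 76.0, 76.2 and 70.1 CPM (log2 fold change 0.03, 95% confidence interval -0.15 to 0.21). NCAPG2, NCAPH and NCAPD3 had log2 fold changes of -0.13, -0.10 and 0.04 and did not pass. Groups did not overlap for NCAPD2, NCAPG2 and NCAPH2 in the lower direction, as for 27.0% of all genes, and for SMC2 and, narrowly, SMC4 in the higher direction, as for 24.9%.

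The members that rose with FDI-6 have the lowest GC content of the 8, whereas NCAPH2, which fell most, has the highest. SMC4 (36.6% GC) and SMC2 (37.4%) lie at percentiles 4.2 and 6.2 of GC among tested genes, NCAPD2 (51.6%) at 58.5 and NCAPH2 (61.3%) at 88.1. Over all genes, the median log2 fold change with FDI-6 was 0.275 in the fifth of genes with the lowest GC and -0.305 in the fifth with the highest. The same medians were -0.143 and 0.172 in siBoth, -0.026 and 0.010 in siFOXM1 and -0.002 and 0.033 in siMYBL2. When a trend with GC content and transcript length was removed from each library, a correction chosen after seeing the data, SMC2 and SMC4 stood at -0.09 and -0.03 (adjusted p 0.21 and 0.71). NCAPD2 (-0.33), NCAPH (-0.31), NCAPG2 (-0.28), NCAPG (-0.27) and NCAPD3 (-0.20) then fell (adjusted p 0.00015 to 0.010), where 16.7% of genes fell, and NCAPH2 did not pass (-0.15, adjusted p 0.093). The cause of the trend was not tested, and directions with FDI-6 hold only for the scale they are given on.

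**Figure D3:**
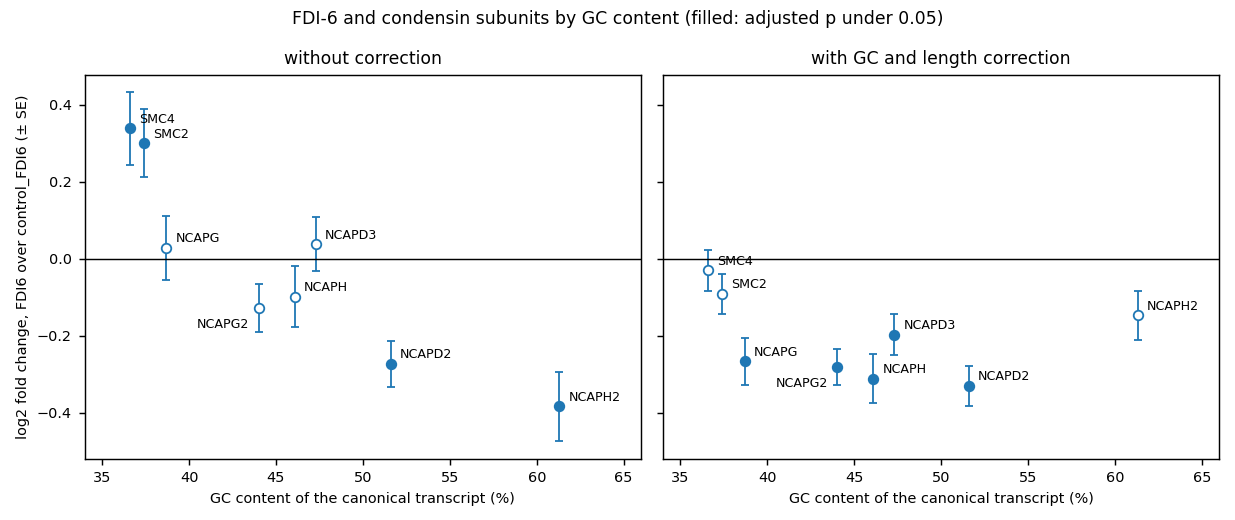
Log2 fold change with FDI-6 (y axis, points ± SE) of each subunit by the GC content of its canonical transcript in percent (x axis), without correction (left) and after a trend with GC content and length was removed (right), with filled points at an adjusted p under 0.05. SMC4 and SMC2 went from 0.34 and 0.30 to -0.03 and -0.09, and NCAPG from 0.03 to -0.27.

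FDI-6 is meant to block FOXM1, so its effect was compared with that of FOXM1 knockdown. SMC2 and SMC4 differed (log2 differences 0.43 and 0.47, SE 0.11 and 0.14, adjusted p 0.015 and 0.025), where 12.3% of 17026 genes were higher and 8.64% lower. After the GC and length correction the differences were -0.02 and 0.04 (adjusted p 0.93 and 0.90). The SMC4 call was lost without FDI6 replicate 1 or control_FDI6 replicate 1 or 2 (adjusted p 0.064 to 0.070). NCAPD2 differed by -0.26 (adjusted p 0.057), and it passed by DESeq2 (adjusted p 0.031) and without siControl replicate 3 (adjusted p 0.046). NCAPG (0.04, 95% confidence interval -0.22 to 0.30) and NCAPG2 (0.05, 95% confidence interval -0.14 to 0.24) did not pass. After the GC and length correction they stood at -0.31 (95% confidence interval -0.58 to -0.04, adjusted p 0.13) and -0.12 (95% confidence interval -0.30 to 0.07). With that correction and the replicate block, NCAPD2 (-0.30, adjusted p 0.00016), NCAPG (-0.31, adjusted p 0.00059) and NCAPD3 (-0.29, adjusted p 0.00084) were lower, although the FDI-6 libraries share only a number. In that fit 2913 of 17026 genes were lower.

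Each condensin I subunit was then set beside its condensin II counterpart, as the ratio of their CPM per kilobase in each library, given as a description. NCAPG over NCAPG2 was 0.46 ± 0.026 in siControl (n = 4), 0.35 ± 0.041 in siMYBL2 and 0.52 ± 0.039 in siFOXM1. It was 0.43 ± 0.019 in siControl_Both (n = 3) and 0.28 ± 0.001 in siBoth. Between the knockdowns of MYBL2 and their controls the ranges did not overlap (0.29 to 0.38 against 0.43 to 0.49, and 0.28 against 0.41 to 0.44), so the condensin I member was the one that fell more. The kleisin ratio, NCAPH over NCAPH2, moved alike, from 0.96 ± 0.061 in siControl to 0.65 ± 0.044 in siMYBL2 and from 0.70 ± 0.043 in siControl_Both to 0.44 ± 0.094 in siBoth. NCAPD2 over NCAPD3 went the other way in siMYBL2 (5.72 ± 0.178 to 6.24 ± 0.429), with ranges of 5.52 to 5.89 and 5.81 to 6.74 that overlap. In siFOXM1 that ratio was 5.32 ± 0.185, with a range of 5.1 to 5.49 below that of siControl. With FDI-6 it was 5.51 ± 0.381 against 6.82 ± 0.074. The other ratios were higher with FDI-6. NCAPG over NCAPG2 was 0.51 ± 0.029 against 0.46 ± 0.022 in control_FDI6. NCAPH over NCAPH2 was 1.1 ± 0.211 against 0.89 ± 0.037, with ranges that overlap (0.91 to 1.33 and 0.86 to 0.93).

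Summed over 3 subunits, condensin I stood at 1.67 ± 0.052 times condensin II in siControl, 1.72 ± 0.056 in siMYBL2 and 1.75 ± 0.045 in siFOXM1, since NCAPD2 makes up most of the condensin I sum. In the second experiment the ratio was 1.62 ± 0.096 in siControl_Both and 1.57 ± 0.061 in siBoth. The change in a pair such as NCAPG and NCAPG2 therefore did not show in the sum of the complexes.

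**Figure D4:**
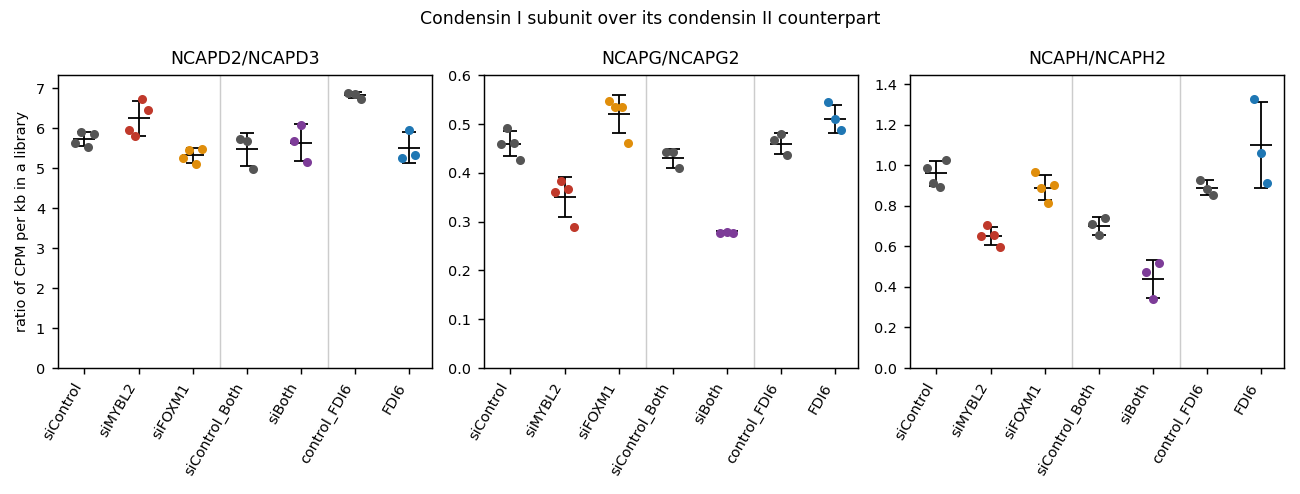
Ratio of a condensin I subunit to its condensin II counterpart in CPM per kilobase (y axis, starting at 0) in each library (points) by group (x axis), with the mean and SD of the group in black. NCAPG/NCAPG2 was 0.29 to 0.38 in siMYBL2 against 0.43 to 0.49 in siControl, and NCAPH/NCAPH2 was 0.60 to 0.71 against 0.89 to 1.02.

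Genes that work with condensin on mitotic chromosomes fell beside it after MYBL2 knockdown. Of 20 such genes, 13 fell in siMYBL2 and none rose, where 9.53% of all genes fell, and their median log2 fold change was -0.37 (10 fell with the GC and length correction). The 13 include TOP2A, the topoisomerase that untangles sister chromatids (-0.89, adjusted p 0.0054), MKI67, the Ki-67 protein of the chromosome surface (-0.91, adjusted p 0.012), and AURKB, the kinase of the chromosomal passenger complex (-0.89, adjusted p 0.012). PLK1, a mitotic kinase (-0.71, adjusted p 0.0059), and KIF4A, a chromokinesin that binds condensin I (-0.36, adjusted p 0.049), fell too. TOP2B, the form of the enzyme that non-dividing cells also use, was at 0.06 (adjusted p 0.62).

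In siFOXM1, 2 of the 20 fell (1.09% of all genes did), CDK1 (-0.69, adjusted p 0.00027) and its partner CCNB1 (-0.68, adjusted p 0.0066), which form the kinase that phosphorylates condensin at mitotic entry. With the replicate block 4 fell and 2 rose in siFOXM1, where 14.0% of all genes fell and 1955 of 15892 rose. In siBoth 9 fell, against 7.77% of all genes, among them MKI67 (-1.50, adjusted p 0.00015), CCNB1 (-1.22, adjusted p 0.00052), CDK1 (-1.11, adjusted p 0.00092) and TOP2A (-1.01, adjusted p 0.0012). With the block 13 fell in siBoth, against 18.5% of all genes. With FDI-6, 7 fell and 2 rose, against 17.9% and 21.0% of all genes, and with the GC and length correction 10 fell and 1 rose. AURKB (-0.48, adjusted p 0.00032) and AURKA (-0.46, adjusted p 0.00025) fell, whereas CSNK2A1, a catalytic subunit of casein kinase 2 (0.30, adjusted p 0.0015), rose.

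The other SMC complexes and the cell-cycle lists are set beside the shares of all genes that fell, 9.53% in siMYBL2, 1.09% in siFOXM1 and 7.77% in siBoth (23.1%, 14.0% and 18.5% with the replicate block). Of 16 genes of cohesin and SMC5/6, 7 fell in siMYBL2, 2 in siFOXM1 and 8 in siBoth, where 1 rose (4.55% of all genes did). With the block 8, 6 and 10 fell, and 3, 0 and 2 rose. Among all genes, 3792 of 16065, 1955 of 15892 and 2572 of 15812 rose with the block. In siBoth 5 fell with the GC and length correction. Of 20 G2/M genes, 10 fell in siMYBL2, 1 in siFOXM1 and 17 in siBoth, and with the block 19, 13 and 19. Of 20 S-phase genes, 7, 0 and 6 fell in the knockdowns, and with the block 19, 12 and 14. No gene of these G2/M and S-phase lists rose in the knockdowns in either fit.

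With FDI-6, where 17.9% of all genes fell and 21.0% rose, the counts of the cohesin and SMC5/6 list depended on the correction. Without it 1 of its 16 genes fell and 7 rose, and with the GC and length correction 5 fell and 1 rose (median log2 fold change 0.19 and 0.05). Of the 20 G2/M genes 3 fell and 2 rose without it, both shares below those of all genes, and with it 13 fell and 1 rose (median -0.04 and -0.26). Of the 20 S-phase genes 8 fell and 1 rose, and with the correction 12 fell and 1 rose. The share of all genes that fell was 16.7% with the correction.

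The G2/M genes summed to 1545 to 2197 CPM in siMYBL2 against 2443 to 2862 CPM in siControl, and to 1256 to 1399 CPM in siBoth against 2138 to 2317 CPM in siControl_Both. The S-phase genes were lower too, at 1440 to 2242 CPM in siMYBL2 against 2205 to 2832 CPM in siControl, which overlap slightly. In siBoth they summed to 1583 to 2015 CPM, against 2047 to 2545 CPM in siControl_Both. In these bulk libraries, fewer cells in these phases and less RNA per cell cannot be told apart, for condensin as for these lists.

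Likeness among the members was described over the 24 libraries. On log2 CPM minus the mean of the matching control group, Pearson's r was 0.964 between SMC2 and SMC4, 0.963 between NCAPH and NCAPG2 and 0.933 between NCAPG and NCAPH. NCAPD2 had an r of 0.567 with NCAPG2, 0.532 with NCAPH, 0.496 with NCAPD3 and 0.445 with NCAPG, but of 0.173 with SMC2 and 0.154 with SMC4. NCAPH2 had an r of 0.617 with NCAPD2 and of -0.409 to 0.022 with the other 6. NCAPD3 had an r of 0.879 with NCAPG. Members of different complexes could thus be as alike as those of 1 complex.

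Of 12561 genes averaging 50 or more counts, those most like the mean of NCAPD2, NCAPG and NCAPH were TOP2A (r = 0.969), ARHGAP11A (0.969), SKA3 (0.967), KIF23 (0.965) and PLK1 (0.963). Those most like the mean of NCAPD3, NCAPG2 and NCAPH2 were GINS2 (0.953), KIFC1 (0.949), SSRP1 (0.946), MCM5 (0.934) and WDR62 (0.929). In the first list SKA3 acts at kinetochores and KIF23, a kinesin, in cytokinesis. In the second GINS2 and MCM5 belong to the replicative helicase, but that list also holds the kinesin KIFC1. The mean of the condensin II subunits joins unlike profiles, as NCAPH2 had an r of -0.027 with NCAPD3 and of 0.022 with NCAPG2. The points share libraries, scaling and depth, so these correlations are descriptions. They were taken without the GC and length correction. The part of the GC trend in them, also in those among the members, was not tested.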

How the data were processed

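RNA-seq gene counts of 24 A549 libraries were analysed. Per the labels and the study's methods, the authors trimmed paired reads with Trim Galore, aligned them to hg38 with STAR and deposited HTSeq counts per gene of GENCODE V29, not normalized. HTSeq leaves out ambiguous and multiply aligned pairs, so overlapping genes are counted in part. Versions and the strand setting are not given in the sources used here. Rows that name no gene held 18.5% to 26.2% of each file and were left out.

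Identifiers were matched to GENCODE V44, and 58207 of 58721 had a symbol. Every contrast had its own edgeR 4.0.16 fit (R 4.3.3), with TMM scaling, filterByExpr and quasi-likelihood tests. Benjamini-Hochberg adjustment ran over all genes tested. Where 2 effects were compared, all their groups shared 1 fit. The threshold was an adjusted p of 0.05, and a call also needed a 1.5-fold change. Fits had no block unless stated. CPM used 1 TMM scaling over all 24 libraries, and likeness added 0.5 CPM before the log2. Intervals are 95%, two-sided. The scripts were tested on simulated data.

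The pairing comes from the replicate numbers of the labels. Deviations of same-numbered libraries correlated at 0.577 to 0.879 for siMYBL2, 0.548 to 0.909 for siFOXM1 and 0.558 to 0.692 for siBoth. Replicates differed beyond counting noise (chi-square per gene at least 3.58), so each was counted once. The alternatives were DESeq2 1.42.0, scaling by RLE or by the upper quartile, leaving out the filter, keeping genes with 10 counts in all libraries, the replicate block, 1 fit of all 24 libraries, no minimum fold, and leaving out each library. A correction of the counts for the GC content and length of transcripts was added after seeing the data (a trend with 5 degrees of freedom, fitted per library to genes that averaged at least 50 counts). The members, gene lists and tests were chosen with earlier results of these data known. Members were described in full, and the 5 genes most like each complex were named. Other genes were named from the lists after their values were seen, and some list genes are not reported here.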

Additional observations from a re-analysis of the deposited data

Results flagged for a closer look

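Of 24 sets of 4 libraries (the 8 members in siMYBL2, siFOXM1 and siControl), 1 held a library that stood far from the others by Dixon's test, and about 1 in 20 such sets would by chance. SMC4 was at 283.9 CPM in siFOXM1 replicate 3 and at 248.0 to 249.1 CPM in the other 3 siFOXM1 libraries, so that gap made up 0.969 of the whole range. SMC4 was also highest in siControl replicate 3, at 320.7 CPM. Without siFOXM1 replicate 3, its log2 fold change was -0.18 (edgeR adjusted p 0.43), against -0.13 with it.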

How the results depend on the processing

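Outside the fits that leave out 1 library, 364 member values kept their direction and their side of the threshold, 26 gained and 9 lost the threshold, and 33 changed sign. With no minimum fold, 5 members were called in siMYBL2, 5 in siBoth and 4 with FDI-6. In siBoth, 1 was called with upper-quartile scaling, with the GC and length correction, and with that correction and the replicate block. Between siMYBL2 and siFOXM1, 3 differed with upper-quartile scaling, and between the FDI-6 and siFOXM1 effects 4 differed with the replicate block, 0 with the GC and length correction and 3 with that correction and the replicate block. Upper-quartile scaling moved the share of higher genes among those called from 43.5% to 59.4% in siBoth and from 63.7% to 51.4% between the FDI-6 and siFOXM1 effects.

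These log2 values changed sign, and none passed the test both with and without the change. In siMYBL2, NCAPH2 was at -0.0053 with DESeq2, -0.0003 without the filter, -0.0147 with the GC and length correction and -0.0136 with that and the block. In siFOXM1, NCAPG was at 0.0386 and 0.0385 with the correction, without and with the block. With FDI-6 and the correction, without and with the block, SMC2 was at -0.0908 and -0.0922, SMC4 at -0.0301 and -0.0315, NCAPG at -0.2664 and -0.2651 and NCAPD3 at -0.1975 and -0.1983. Upper-quartile scaling gave -0.0135 for NCAPG and -0.0043 for NCAPD3. Between the siBoth and siMYBL2 effects, the same pair of settings gave 0.1204 and 0.1242 for SMC2, 0.0812 and 0.0923 for NCAPH and 0.0205 and 0.0245 for NCAPG2, and upper-quartile scaling 0.0038 for NCAPH. Between the FDI-6 and siFOXM1 effects it gave -0.0175 and -0.0188 for SMC2, -0.3081 and -0.3072 for NCAPG, -0.1271 and -0.13 for NCAPH and -0.1162 and -0.116 for NCAPG2, and upper-quartile scaling -0.021 for NCAPG and -0.0059 for NCAPG2. The cause was not tested.

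With 1 library left out, calls ranged from 1 to 2 members in siMYBL2 (2 without siMYBL2 replicate 2 or 3 or siControl replicate 4), from 1 to 4 in siBoth, from 3 to 6 between siMYBL2 and siFOXM1 and from 1 to 3 between the FDI-6 and siFOXM1 effects. Values that changed sign ranged from -0.0844 to 0.0652 for NCAPH2 in siMYBL2, from -0.0558 to 0.0183 for NCAPD2 and -0.0562 to 0.0345 for NCAPG in siFOXM1, from -0.0128 to 0.2446 for NCAPH2 in siBoth, and from -0.0432 to 0.0931 for NCAPG and -0.0122 to 0.0678 for NCAPD3 with FDI-6. Between the siBoth and siMYBL2 effects they ran from -0.0867 to 0.0395 for NCAPD2, -0.1051 to 0.071 for NCAPH, -0.0157 to 0.095 for NCAPD3, -0.0984 to 0.0075 for NCAPG2 and -0.0115 to 0.2422 for NCAPH2. Between the FDI-6 and siFOXM1 effects NCAPG ran from -0.0354 to 0.1125. Without FDI6 replicate 1, NCAPH (-0.16, edgeR adjusted p 0.050) and NCAPG2 (-0.15, adjusted p 0.021) passed.

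FDI6 and control_FDI6 libraries share only a number (correlations -0.12, 0.167 and -0.296), and the block changed no FDI-6 call there. Between the FDI-6 and siFOXM1 effects it added NCAPD2 (-0.27, adjusted p 0.0031) and NCAPH2 (-0.31, adjusted p 0.021), where 3114 of 17026 genes were lower. In the siRNA comparisons it changed no call of a member beyond those given above. Members had 507 or more counts in each library, and differences inside the intervals given were not detectable with this number of libraries.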
